A study of Homo sapiens with 13 samples.

Results

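The genes described here are extracellular and lysosomal proteases and their inhibitors, chosen by a list of 47 gene symbols. Each was represented by the probe set that names that gene alone, and where several did, by the brightest of them on average. Of the 47 listed genes, 45 were measured, out of 11963 genes in all; SERPINB2 and SERPINB6 were not analysed here. The RNA came from human non-small cell lung carcinoma (NSCLC) cell lines, and 13 Affymetrix arrays measured it. The control, non-metastatic cells were hybridised as 2 arrays without and 2 arrays with a luciferase reporter. The highly metastatic lines M1, M4 and M5 were hybridised as 3 arrays each. These lines were subpopulations of the control cells that colonised bone efficiently after injection into the heart of mice. Each array carried RNA pooled from 3 groups of the same cells, so the spread between arrays is a spread between pools. The labels do not say that a line is 1 clone, and they do not name the parental line. Whether M1, M4 and M5 carry the luciferase reporter is not stated either.

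Secreted and cell-surface proteases cut the matrix around a tumour cell and release or activate growth factors held there. Matrix metalloproteinases (MMPs) are made as inactive precursors and are held in check by the tissue inhibitors of metalloproteinases (TIMPs), while urokinase (PLAU) bound to its receptor (PLAUR) turns plasminogen into plasmin under the control of serpins. Cathepsins work mainly inside lysosomes, where cystatins are their inhibitors once they escape, and ADAM proteases shed membrane proteins from the cell surface; in bone, cathepsin K and MMP9 are best known as products of osteoclasts. Arrays measure messenger RNA only, so neither secretion nor enzyme activity was measured.

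Promoter sequence is shown for PLAU, which differed most clearly among the lines, and for SERPINE2, whose serpin product inhibits urokinase. The windows are the 250 bases before an annotated RefSeq start in GRCh38.p14, on the strand of the gene, 5′ to 3′. Capitals mark a match to the lysosomal CLEAR-type E-box TCACGTG, searched on both strands. PLAU held neither that motif nor the AP-1 motif TGANTCA, also searched on both strands, in the windows of its listed starts. Those windows were chr10:73910360-73910609 and chr10:73910882-73911131 on the plus strand. SERPINE2 held TCACGTG in the window chr2:224031479-224031728 on the minus strand and neither motif in that of its other listed start, chr2:224038641-224038890. The RefSeq spans of PLAU and SERPINE2 reach further upstream, to bases 73908832 and 224039286, where no start was listed and none was searched.

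PLAU, first start: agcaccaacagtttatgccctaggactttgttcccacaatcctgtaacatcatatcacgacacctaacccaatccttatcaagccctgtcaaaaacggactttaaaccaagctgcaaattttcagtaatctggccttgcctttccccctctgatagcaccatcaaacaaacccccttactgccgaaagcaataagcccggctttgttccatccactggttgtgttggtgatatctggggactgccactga

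PLAU, second start: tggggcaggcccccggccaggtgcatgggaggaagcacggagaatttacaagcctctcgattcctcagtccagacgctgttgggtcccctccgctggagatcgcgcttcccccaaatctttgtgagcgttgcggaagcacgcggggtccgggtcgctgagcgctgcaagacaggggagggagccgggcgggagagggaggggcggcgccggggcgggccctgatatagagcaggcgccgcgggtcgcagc

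SERPINE2, the start with the match: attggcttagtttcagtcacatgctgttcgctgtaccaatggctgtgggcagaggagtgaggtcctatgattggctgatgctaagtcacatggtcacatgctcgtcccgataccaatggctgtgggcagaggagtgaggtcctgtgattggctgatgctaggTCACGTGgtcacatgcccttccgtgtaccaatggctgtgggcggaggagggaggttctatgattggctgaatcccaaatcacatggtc

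Starts were listed for 28 of the 45 genes, 34 starts in all. AP-1 matches lay in 4 of these starts, 11.8% against 6.57% of all 35116 starts, and CLEAR-type matches in 3, or 8.82% against 3.31%. A match of letters is a description and was not tested as a binding site. The AP-1 matches, in capitals with 8 bases on each side, were in the following genes.

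MMP7, chr11:102530800-102530822, minus strand: cactcaaaTGAGTCAcctatttc

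MMP10, chr11:102780681-102780703, minus strand: cacatgcaTGAATCAtactgttg

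PLAUR, chr19:43670341-43670363, minus strand: caactccaTGAGTCAgggccgag

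SERPINB5, chr18:63476804-63476826, plus strand: cttcagccTGAATCAtttctttc

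Besides SERPINE2, the CLEAR-type matches were in these genes, shown because lysosomal genes are the class in which that motif is known.

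CTSD, chr11:1763960-1763982, minus strand: gccgcgccCACGTGAccggtccg

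ADAM10, chr15:58749837-58749859, minus strand: cccgcgcgTCACGTGgtgaggaa

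Several arrays stood apart in ways the line labels do not describe. By the signals of the 62 Affymetrix control probe sets, the arrays fell into 4 groups, called control-probe clusters here; the labels name no batch. Cluster 1 held the first replicate of each control and M1 replicate 2. Cluster 2 held the second replicate of each control and the first replicates of M1, M4 and M5. Cluster 3 held M1 replicate 3 and M4 replicates 2 and 3, and cluster 4 held M5 replicates 2 and 3 alone. The array closest to a given array over all genes came from its own cluster for 13 of 13 arrays and from its own line or control kind for 4 of 13. Over the 45 genes these counts were 10 and 7. The difference between 3′ and 5′ signals of control probes is a sign of RNA quality. For actin it lay between 0.11 and 0.30 on the log2 scale in clusters 3 and 4 and between -0.19 and -0.028 in the others. For GAPDH the ranges overlapped, at 0.098 to 0.17 in clusters 3 and 4 and 0.028 to 0.16 in the others. Each comparison was therefore fitted without and with the clusters as a block. With the block, M5 against any other group rests on M5 replicate 1, since cluster 4 holds no other line, and this lone array is assumed to vary like the other groups.

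Epithelial keratins KRT7, KRT8, KRT18 and KRT19 were above the array median on all 13 arrays, while EPCAM and CDH1, both defining markers of epithelial cells, were below the lower quartile on all 13. The summed signal of 6 epithelial markers ranged from 12.85 to 13.29. Markers of osteoclasts (3 measured), leucocytes (4) and endothelium (4) had summed signals of 5.93 to 6.26, 6.18 to 6.65 and at most 6.22 on the log2 scale; 1, 0 and 2 of these markers were below the lower quartile on all 13 arrays. The RNA is from cultured lines, and a share of other cells in bulk RNA cannot be told from a change in RNA per cell.

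Signal was compared with the whole array before any comparison between lines. MMP1, MMP3 and MMP13, the classical collagenases and stromelysin, were below the lower quartile of the array on all 13 arrays, and MMP7 and MMP10 on 12. In all, 15 of the 45 genes lay below the array median on all 13 arrays. These were the 5 just named and MMP2, MMP24, TIMP3, PLAT, CTSH, CTSK, CTSO, CST6, HPSE and SPINT1. Differences in these genes come from signals near the bottom of the scale. In 23 genes the signal was above the median on all 13 arrays, among them TIMP1, TIMP2, PLAU, PLAUR, SERPINE2, SERPINB1, CTSB, CTSC, CTSD, CTSL, ADAM9, ADAM10 and ADAM17. The remaining 7, among them MMP9, MMP15 and ST14, lay on both sides of it.

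The spread of these genes over the 13 arrays resembled that of genes in general. Their median range from the lowest to the highest array was 0.72 on the log2 scale against 0.65 for all genes. The median standard deviation within a group was 0.19 against 0.18, and the median span of the group means was 0.34 against 0.28. A range over 1 was found in 9 of the 45 genes, 20.0%, against 15.3% of all genes. The heat map of differences from control shows where the larger ranges lie.

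**Figure D1:**
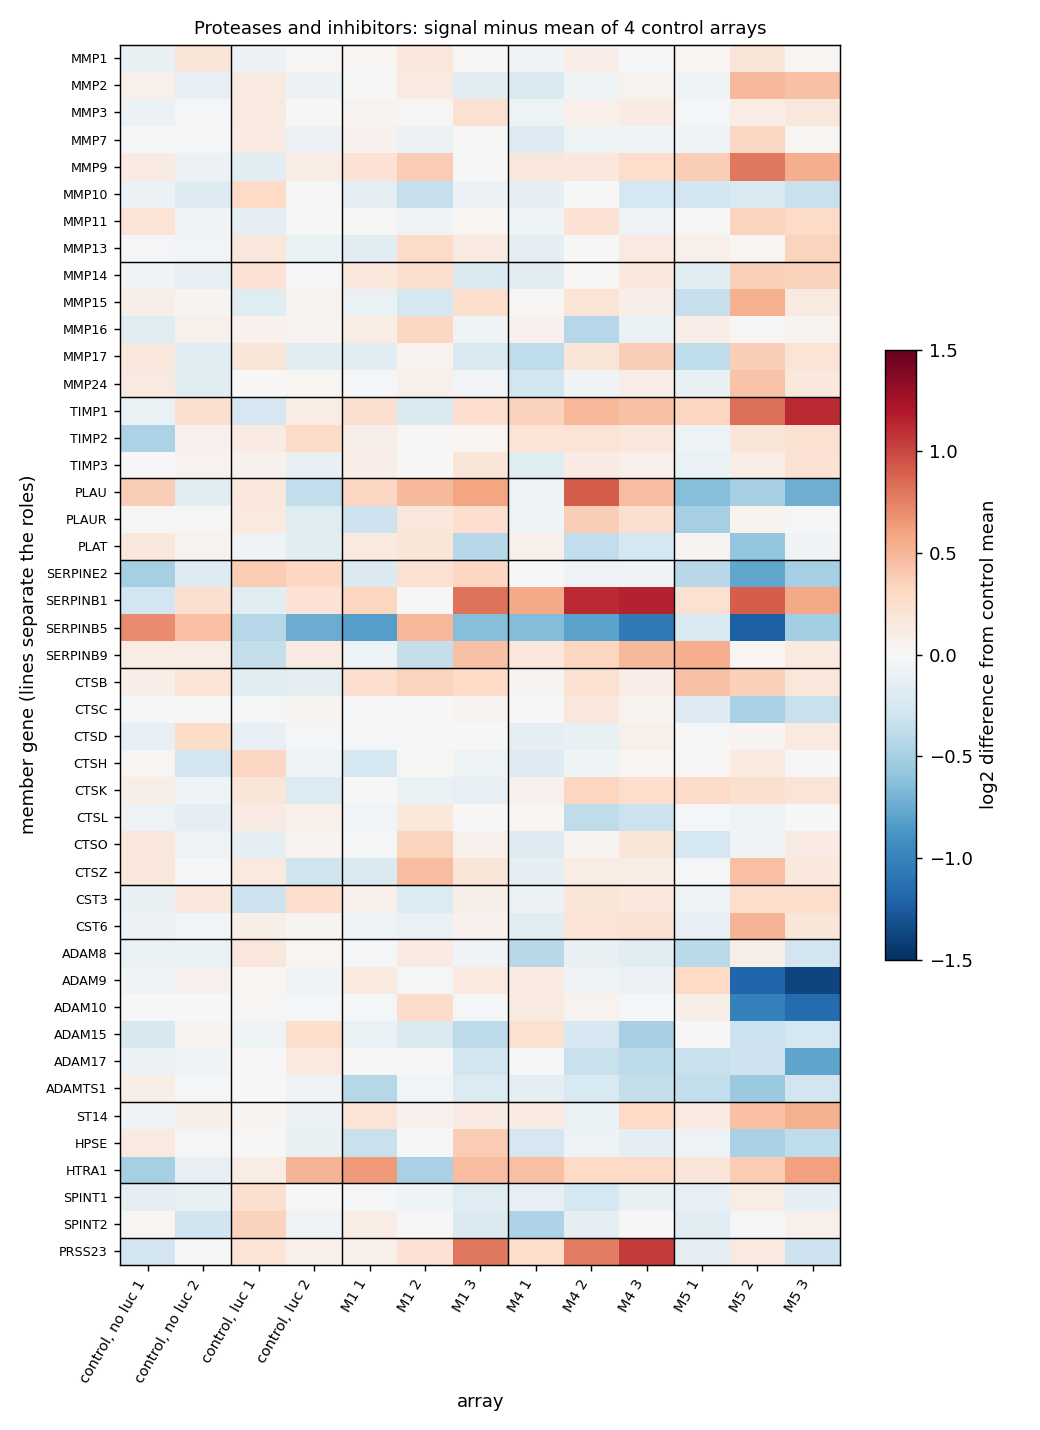
Log2 difference of each of the 45 genes (vertical, ordered by role) from the mean of the 4 control arrays, for all 13 arrays (horizontal, in groups). ADAM9 and ADAM10 are low on M5 replicates 2 and 3 and not on M5 replicate 1, and PLAU is low on the 3 M5 arrays.

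The study asked which genes distinguish bone-colonising lines from the control cells. In limma, with Benjamini-Hochberg adjustment over all 11963 genes and a threshold of 0.05, 1 of the 45 genes passed in M5 against control without the block, which is 2.22% beside 2.37% of all genes. At an unadjusted p below 0.05 there were 14 of the 45, beside 18.0% of all genes. None of the 45 passed in M1 against control, where 0.0251% of all genes did (unadjusted, 2 of the 45 beside 3.08% of all genes). None passed in M4 against control, where 0.092% of all genes did (unadjusted, 4 beside 6.91%). The mean of the 3 lines against control called none either, beside 0.0251% (unadjusted, 8 beside 8.16%).

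Among the lines, M5 against M1 called 1 of the 45, beside 1.23% of all genes (unadjusted, 9 beside 14.8%). M5 against M4 called 1, beside 2.16% (unadjusted, 8 beside 15.1%). M4 against M1 called none, beside 0.0251% (unadjusted, 3 beside 2.83%). With the clusters as a block, limma called none of the 45 in these 7 comparisons. For M1, M4 and M5 against control the block called 0.234%, 0.15% and 1.98% of all genes; unadjusted there were 2, 2 and 7 of the 45, beside 9.51%, 7.01% and 15.3%. For the mean of the lines it called 0.527% (unadjusted, 2 beside 9.69%). For M5 against M1, M5 against M4 and M4 against M1 it called 1.61%, 1.85% and 0.117%; unadjusted there were 5, 5 and 2 of the 45, beside 15.4%, 14.3% and 4.84%. The comparisons with control share its 4 arrays, so they are given side by side and are not independent. MMP9 and PLAU are the genes called; other genes are named with values after those values were seen.

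MMP9, the gelatinase that cleaves denatured collagen and type IV collagen of basement membranes, was higher in M5 than in control. Its signal was 5.29 and 5.08 in control cells without luciferase and 5.01 and 5.27 with it. In M1 it was 5.38, 5.54 and 5.15, and in M4 5.33, 5.31 and 5.43. In M5 it was 5.53, 5.96 and 5.70. All 3 M5 arrays and all 3 M4 arrays lay above all 4 control arrays, while M1 overlapped control. MMP9 rose by 0.57 ± 0.13 (SE) on the log2 scale in M5 against control, 1.48-fold, with a limma adjusted p of 0.0407. With the cluster block the difference was 0.40 ± 0.17 with an adjusted p of 0.287. Within cluster 2 alone, M5 replicate 1 was 0.36 above the 2 controls. Over all 19064 probe sets that name 1 gene, the adjusted p was 0.0532. MMP9 lay below the array median on 11 of 13 arrays, and 1 probe set measured it.

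None of the other secreted MMPs passed. MMP2, the other gelatinase, was 5.09 and 4.88 without luciferase and 5.14 and 4.92 with it in control. In M5 it was 4.96, 5.50 and 5.45, so replicates 2 and 3 were above every control and replicate 1 was within their range. The membrane-type MMPs (MMP14, MMP15, MMP16, MMP17 and MMP24), which act at the cell surface and of which MMP14 also activates pro-MMP2, had positive M5 minus control differences in 5 of 5 genes. Their median was 0.10 without the block and -0.058 with it, none passing limma (adjusted p over all genes). The corresponding median over all genes was 0.031 and -0.017.

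TIMP1, which binds MMP9 and its precursor, was 11.28 and 11.62 in control without luciferase and 11.12 and 11.49 with it. It was 11.62, 11.17 and 11.63 in M1, 11.72, 11.88 and 11.82 in M4, and 11.70, 12.21 and 12.50 in M5. All arrays of M4 and M5 lay above all control arrays. The M5 minus control difference of 0.76 ± 0.18 did not pass (limma adjusted p = 0.0525), and it was 0.13 with the cluster block. TIMP2 and TIMP3, which also inhibit membrane-type MMPs, had no called difference. The M5 means of TIMP2 and TIMP3 were 7.29 ± 0.17 and 4.89 ± 0.17 (SD, n = 3) beside control means of 7.18 ± 0.33 and 4.81 ± 0.08 (SD, n = 4).

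**Figure D2:**
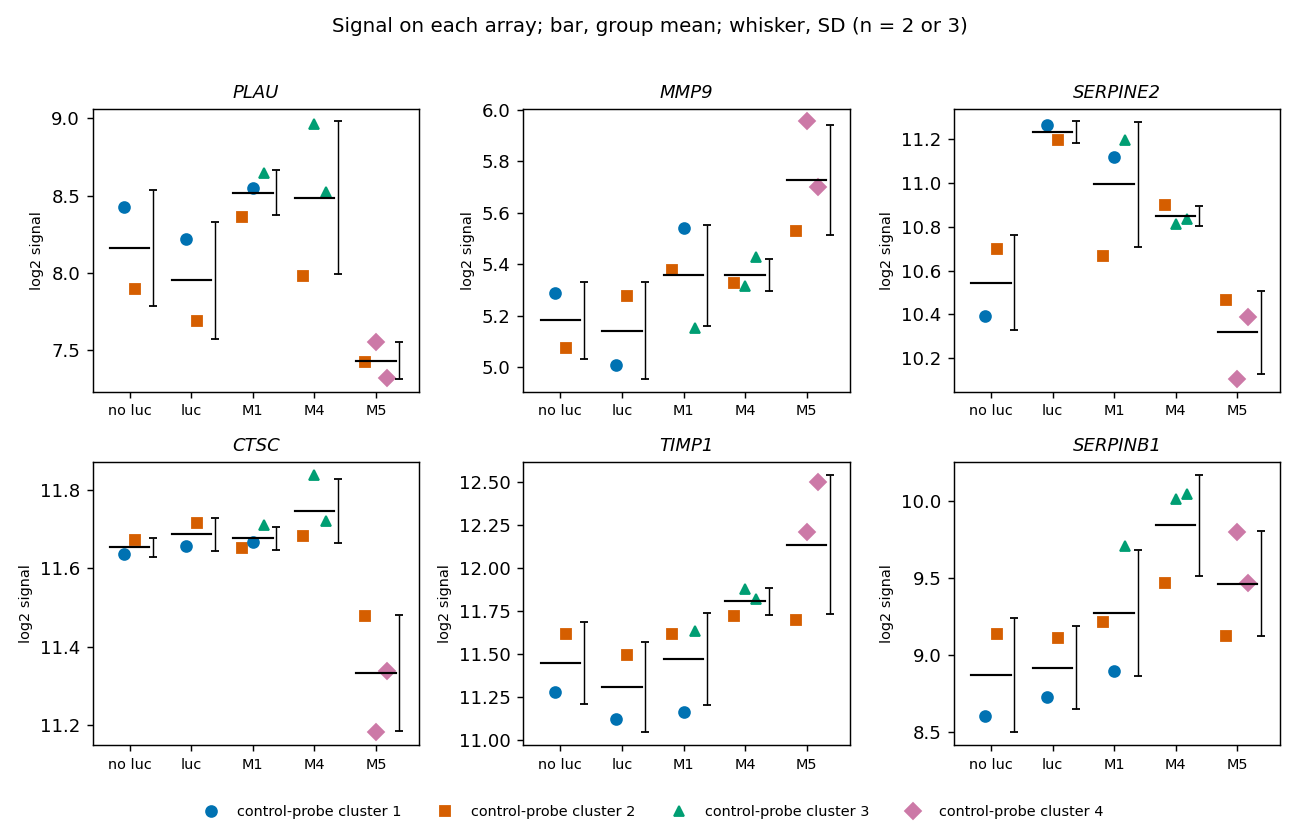
Log2 signal of PLAU, MMP9, SERPINE2, CTSC, TIMP1 and SERPINB1 by group, 1 point per array, with the marker showing the control-probe cluster, the bar the group mean and the whisker its SD. The 3 M5 arrays are the lowest 3 of the 13 for PLAU and for CTSC, and the M5 arrays of TIMP1 lie above all control arrays.

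PLAU, the secreted serine protease urokinase, was lower in M5 than in the other metastatic lines. Its signal was 8.36, 8.55 and 8.65 in M1, 7.98, 8.96 and 8.52 in M4, and 7.42, 7.56 and 7.32 in M5. In control it was 8.43 and 7.90 without luciferase and 8.22 and 7.69 with it. The M5 arrays were the lowest 3 of the 13 and did not overlap any other group. PLAU fell by 1.09 ± 0.23 (SE) on the log2 scale in M5 relative to M1, which is 2.12-fold lower, with a limma adjusted p of 0.0425. Relative to M4 it fell by 1.06 ± 0.23, or 2.08-fold lower, adjusted p = 0.0320. With the replicate number as a block the M5 minus M4 difference was -1.06 with an adjusted p of 0.0660, or 0.0554 on the M4 and M5 arrays alone. The difference from control was -0.62 ± 0.21 (adjusted p = 0.152). M1 minus control was 0.46 and M4 minus control 0.43, neither past the threshold. So M5 lay below control and the other 2 lines above it on average, with M1 and M4 arrays overlapping those of control.

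With the cluster block the PLAU differences were -0.75 against M1 (limma adjusted p = 0.0971), -0.67 against M4 (0.152) and -0.41 against control (0.347). Within cluster 2, where 1 array of each line and 2 controls lie together, M5 was 0.94 below M1, 0.56 below M4 and 0.37 below control. A second probe set of PLAU, with a lower mean signal, was lower in M5 by more. In a fit over all 19064 probe sets its difference was -1.57 ± 0.20 against M1 (adjusted p = 0.00439), -1.41 against M4 (0.00496) and -1.29 against control (0.00895). With the block it was -1.04 (0.0323), -0.96 (0.0453) and -0.76 (0.0774). The direction was the same in both probe sets, and this second probe set passed against both lines with the block, where the first did not.

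1 of 6 markers of stroma was called in the same comparison. COL3A1, a fibrillar collagen, fell by 1.72 ± 0.32 in M5 relative to M1 (limma adjusted p = 0.0226) and by 1.54 with the block (adjusted p = 0.0227). In M1 minus control COL3A1 was 1.19 without the block (limma adjusted p = 0.706) and 1.43 with it (limma adjusted p = 0.00521). In M5 minus control it was -0.53 without the block and -0.11 with it. Of the 6 markers, 4 had a positive and 2 a negative M5 minus M1 difference, with a median of 0.086 beside 0.034 for all genes. PDGFRB, a receptor of pericytes and fibroblasts, had means of 5.45 in M5 and 5.26 in M1. The summed signal of the 6 was 9.38 to 9.83 in control, 10.16 to 11.10 in M1, 9.81 to 10.39 in M4 and 9.14 to 9.61 in M5, a sum to which COL3A1 alone adds a called difference. LUM was below the lower quartile on all 13 arrays, and COL1A1 and COL3A1 were above the median on all 13. The part of COL3A1 or of stromal RNA in the PLAU difference was not tested.

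PLAUR, the urokinase receptor, overlapped in every pair of groups, with M5 at 7.66, 8.21 and 8.13 beside 8.18, 8.18, 8.30 and 7.98 in control. PLAT, the tissue-type plasminogen activator, had means of 4.26 ± 0.34 in M5 and 4.45 ± 0.14 in control (SD, n = 3 and 4). The receptor and the second activator thus showed no called difference in the comparisons where PLAU did.

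SERPINE2, or protease nexin 1, inhibits urokinase and thrombin. In control it was 10.39 and 10.70 without luciferase, and 11.27 and 11.20 with it. The M1 arrays were at 10.67, 11.12 and 11.20, the M4 arrays at 10.90, 10.81 and 10.84, and the M5 arrays at 10.47, 10.11 and 10.39. M5 lay below all arrays of M1 and M4 and overlapped the control cells without luciferase. The M5 minus M1 difference of -0.67 ± 0.15 missed the threshold (limma adjusted p = 0.0502), as did M5 minus control at -0.57 ± 0.14 (0.0534). Against the controls without luciferase alone, M5 differed by -0.23 (adjusted p = 0.567), and against those with it by -0.91 (adjusted p = 0.0392).

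SERPINB1, an inhibitor of neutrophil serine proteases, was 9.46, 10.01 and 10.05 in M4 and 8.60 to 9.13 in the 4 control arrays, without overlap. Its M4 minus control difference was 0.95 ± 0.23, the largest positive one of the 45 genes in that line, with a limma adjusted p of 0.248, and it was 0.41 with the block. SERPINB5 (maspin) had the largest negative difference in M4 against control, -0.84. It was 8.42 and 8.16 in control without luciferase, 7.28 and 6.96 with it, and 7.06, 6.90 and 6.64 in M4. In M1 it was 6.88, 8.20 and 7.07, so M1 replicate 2 stood with the control cells without luciferase and the other M1 arrays with the rest. The difference between the 2 kinds of control, -1.17, was larger than that between any line and their mean. SERPINB9, an inhibitor of granzyme B, had means of 7.85 ± 0.24 in control (SD, n = 4) and 7.86 ± 0.41, 8.18 ± 0.17 and 8.09 ± 0.27 in M1, M4 and M5 (SD, n = 3).

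The luciferase comparison, 2 arrays against 2, called none of the 45 genes in limma (4 at an unadjusted p below 0.05, beside 1.29% of all genes), and 0 of 11963 genes in all, 154 of them below 0.05 unadjusted. With the block it called 0.0167% of all genes and none of the 45 (unadjusted, 6 beside 5.93%). The 4 genes were SERPINB5 at -1.17, SERPINE2 at 0.69, TIMP2 at 0.41 and CTSB at -0.30 on the log2 scale, cells with the reporter minus cells without it. The adjusted p of SERPINB5 and SERPINE2 rounds to 1 in that fit.

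**Figure D3:**
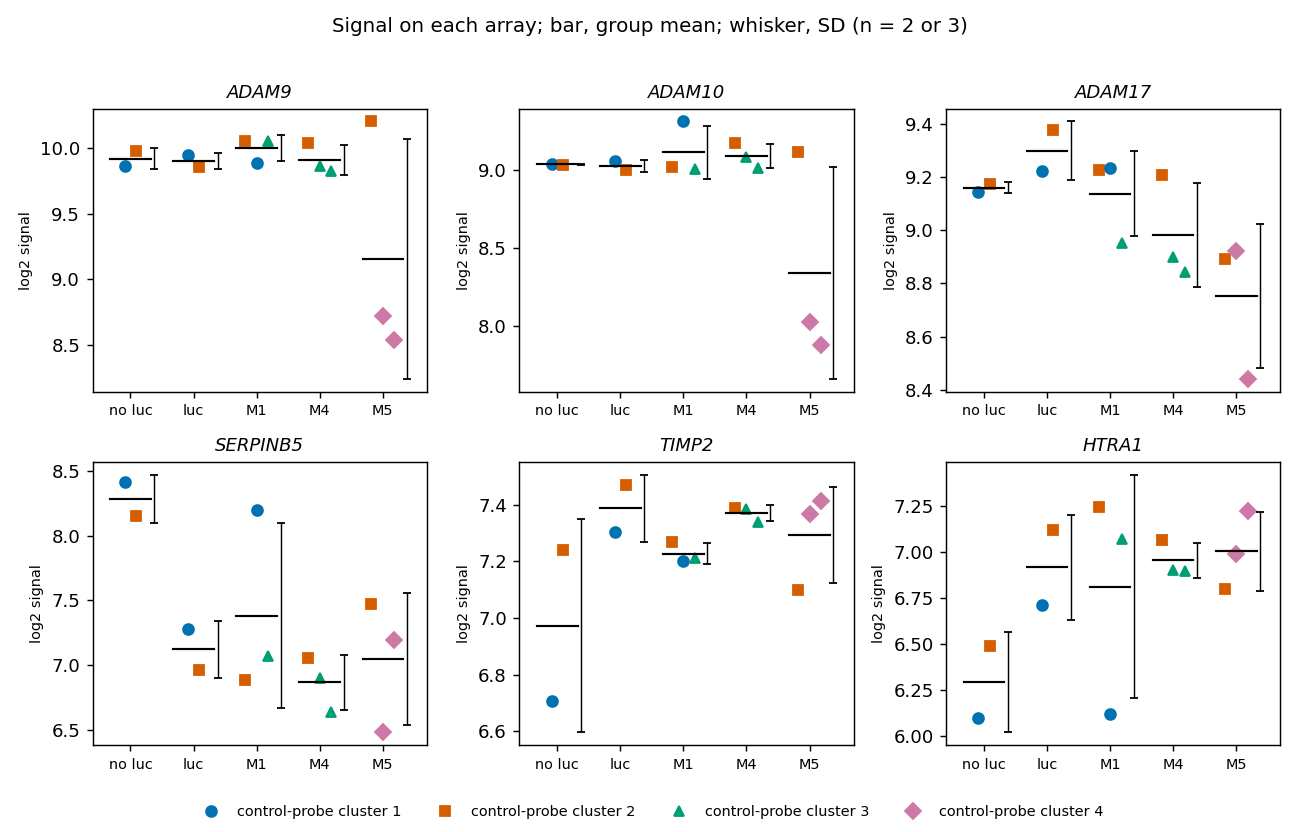
Log2 signal of ADAM9, ADAM10, ADAM17, SERPINB5, TIMP2 and HTRA1 by group, 1 point per array, with the marker showing the control-probe cluster, the bar the group mean and the whisker its SD. For ADAM9 and ADAM10, M5 replicate 1 lies with the other groups and M5 replicates 2 and 3 lie well below; SERPINB5 separates the 2 kinds of control.

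No cathepsin passed in limma in these comparisons, with or without the cluster block, and CTSC and CTSB passed in some under other settings. CTSC, the dipeptidyl peptidase that activates granule serine proteases, was 11.64 to 11.72 in the 4 control arrays and 11.48, 11.18 and 11.34 in M5. All 3 M5 arrays lay below every other array. The differences of -0.34 against control and -0.41 against M4 did not pass (limma adjusted p = 0.0877 and 0.0584). Against M4 it passed after quantile normalization, without dim genes, with the mean of all probe sets and with a trended prior (adjusted p = 0.0166 to 0.0471), and against control with that prior (0.0330). CTSB, an abundant lysosomal cysteine protease that tumours can secrete, was 8.73 and 8.83 without luciferase and 8.47 and 8.49 with it in control. It was 8.89, 8.96 and 8.93 in M1, all above control, and 9.07, 8.99 and 8.80 in M5. Its M1 minus control difference of 0.30 and its M5 minus control difference of 0.32 did not pass (limma adjusted p = 0.9997 and 0.101). The latter passed after quantile normalization (limma adjusted p = 0.0345). In the other probe sets of CTSB, M1 minus control was 0.072, 0.080 and 0.20. M5 minus control was 0.11, 0.30 and 0.25 in the same order.

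CTSK, the collagen-degrading cathepsin of osteoclasts, was 5.15, 4.99, 5.24 and 4.85 in control, 5.05, 4.96 and 4.94 in M1, 5.13, 5.38 and 5.32 in M4, and 5.34, 5.30 and 5.25 in M5. The M5 arrays lay above the control arrays, the difference of 0.24 ± 0.11 did not pass, and CTSK was below the array median on all 13 arrays. CTSD, CTSH, CTSL, CTSO and CTSZ, the other lysosomal cathepsins, had no called difference. The control means of CTSL and CTSD were 11.17 ± 0.12 and 7.46 ± 0.19 (SD, n = 4), and their M5 means 11.13 ± 0.04 and 7.52 ± 0.07 (SD, n = 3). The cystatins CST3 and CST6, which inhibit cysteine cathepsins, were not called. CST3, the secreted cystatin C, had a mean of 9.33 ± 0.20 in M5 (SD, n = 3) and 9.18 ± 0.26 in control (SD, n = 4).

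ADAM9 and ADAM10 had the largest spread between M5 arrays of the 45 genes, with an SD of 0.92 and 0.68 over 3 arrays. ADAM10, a sheddase of many membrane proteins including Notch, was 9.12, 8.03 and 7.88 on M5 replicates 1, 2 and 3, against 9.00 to 9.31 on the other 10 arrays. ADAM9 was 10.21, 8.72 and 8.53 on M5, against 9.83 to 10.06 on the others. In both genes M5 replicate 1 lay with control or above it, while replicates 2 and 3, the arrays of cluster 4, lay below all others. Their M5 minus control differences were -0.69 for ADAM10 and -0.76 for ADAM9 without the block (limma adjusted p = 0.143 and 0.207), and with the block the signs turned to 0.14 and 0.25.

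ADAM17, the sheddase that releases TNF and EGFR ligands, was 8.89, 8.92 and 8.44 in M5, below the 9.15, 9.18, 9.22 and 9.38 of control on every array. Its difference of -0.48 ± 0.14 did not pass (limma adjusted p = 0.0976), and it was -0.37 with the block (0.316). The other probe sets of ADAM17 gave -0.38 and -0.69. ADAMTS1, a secreted protease that cleaves proteoglycans, was 6.90, 6.71 and 6.99 in M5 and 7.22 to 7.35 in control, with a difference of -0.40 (adjusted p = 0.0909). With ADAM8 and ADAM15, all 6 measured ADAM and ADAMTS members had a negative M5 minus control difference without the block. Their median was -0.44 without the block and -0.21 with it, beside 0.031 and -0.017 for all genes. A second probe set of ADAM8, with a lower mean signal, gave 0.21, where the one used gave -0.20. None of the 6 passed. Without the block the wider family did not go the same way. Of 26 other measured ADAM, ADAMTS and astacin genes, 18 had a positive and 8 a negative difference, with a median of 0.047. With the block their median was -0.081, beside -0.017 for all genes. Limma called none of the 26 in either fit.

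Among the other enzymes and inhibitors, PRSS23, a secreted serine protease, was 9.49, 10.01 and 10.28 in M4 and 8.95 to 9.43 in control, without overlap. It was 9.09, 9.37 and 8.92 in M5. Its M4 minus control difference was 0.70 (limma adjusted p = 0.411), its M5 minus M4 difference -0.80 (0.0873). ST14, the membrane serine protease matriptase, was 5.43, 5.76 and 5.84 in M5 and 5.22 to 5.39 in control. Its M5 minus control difference of 0.37 did not pass, and its other probe sets gave 0.20 and 0.094. In M1 minus control those other probe sets gave 0.37 and 0.28, where the one used gave 0.13. The matriptase inhibitors SPINT1 and SPINT2 had M5 means of 4.76 ± 0.14 and 5.29 ± 0.12 (SD, n = 3) beside control means of 4.81 ± 0.17 and 5.33 ± 0.27 (SD, n = 4). HTRA1, a secreted serine protease, was 6.12 on M1 replicate 2 and 6.10 on the first control array without luciferase, the lowest 2 of the 13. Both arrays are in cluster 1, whose remaining array, a control with luciferase, was at 6.72. The other control array without luciferase, in cluster 2, was at 6.49. HPSE, the heparan sulfate endoglycosidase heparanase, had means of 4.67 ± 0.21 in M5 (SD, n = 3) and 4.98 ± 0.10 in control (SD, n = 4).

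The M5 counts rose when M5 replicate 1 was left out. M5 was then replicates 2 and 3, the whole of cluster 4, so line and cluster cannot be told apart there. Without M5 replicate 1, 11 of the 45 genes passed in M5 against control (24.4%), beside 25.6% of all genes. MMP2, MMP9, SERPINB1, ST14 and TIMP1 were higher, and ADAM9, ADAM10, ADAM17, ADAMTS1, CTSC and SERPINE2 were lower in that fit. For M5 against M1 the count was 8 (17.8%, beside 19.8% of all genes), and for M5 against M4 it was 10 (22.2%, beside 20.4%). For the mean of the lines against control it was 2, ADAM9 and TIMP1 (4.44%, beside 2.44%). For the M5 comparisons the shares were close to those of genes in general, so the counts carry nothing particular to proteases. PLAU differed from M1 by -1.10 on M5 replicate 1 and by -1.08 on the mean of M5 replicates 2 and 3. ADAM9 differed from control by 0.29 on M5 replicate 1 and by -1.28 on the mean of the others, ADAM10 by 0.086 and -1.08. A single array has no spread of its own, so these values are given without a test.

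**Figure D4:**
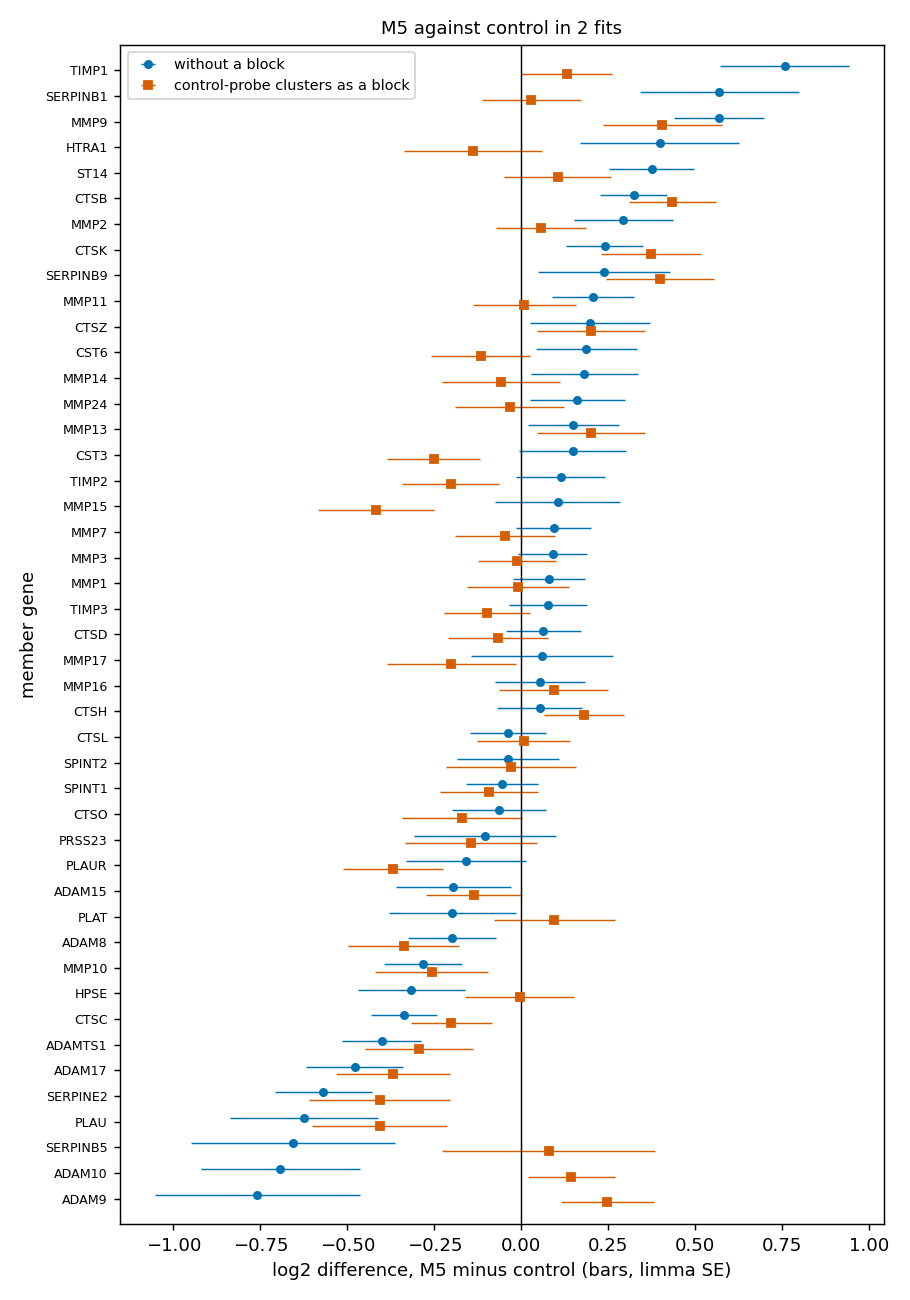
M5 minus control difference of the proteases and inhibitors on the log2 scale with its SE, fitted without and with control-probe clusters as a block. PLAU and MMP9 keep their sign in both fits, and ADAM9 and ADAM10 change it, from -0.76 to 0.25 and from -0.69 to 0.14.

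Arrays that do not overlap between groups give a reading without a model. All M5 arrays were above or below all control arrays in 9 of the 45 genes, beside 12.2% of all genes. MMP9, TIMP1, CTSK and ST14 were above (4 genes, beside 5.88% of all genes), and MMP10, PLAU, CTSC, ADAM17 and ADAMTS1 below (5, beside 6.3%). M4 and control did not overlap in 7 genes (11.4% of all genes). MMP9, TIMP1, SERPINB1, SERPINB9 and PRSS23 were above (5, beside 5.92%), ADAM8 and ADAMTS1 below (2, beside 5.53%). M1 and control did not overlap in 1 gene (5.94%), CTSB, which was above (2.35%); none was below (3.59%). None of the 45 separated all 9 metastatic arrays from all 4 control arrays (0.602% of all genes).

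Between the lines, M5 and M1 did not overlap in 6 of the 45 genes (13.7% of all genes). TIMP1 and CTSK were above in M5 (2, beside 7.5%), and PLAU, SERPINE2, CTSC and ADAM17 below (4, beside 6.22%). M5 and M4 did not overlap in 6 genes either (16.2%), with MMP7 and MMP9 above (2, beside 7.33%) and PLAU, SERPINE2, CTSC and PRSS23 below (4, beside 8.9%). M4 and M1 did not overlap in 5 (8.66%), with TIMP1, TIMP2 and CTSK above in M4 (3, beside 4.57%) and CTSB and ADAM8 below (2, beside 4.09%). The counts above the share of all genes were those of M5 and M4 against control and of M4 against M1.

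Other genes of the same pathways were read from 5 lists of 148 genes, of which 133 were measured: further MMPs and their inhibitors, plasminogen and serpin genes, lysosomal genes and cystatins, ADAM and astacin genes, and serine proteases with their inhibitors. In the comparisons of the lines with control and with each other, limma called 1 of these 133 without the block and 1 with it. MITF, a transcription factor of lysosomal and melanocyte genes, fell by 0.89 ± 0.16 in M5 relative to M4 (adjusted p = 0.0159), and the difference was -0.49 with the block (adjusted p = 0.215). LGMN, the lysosomal asparaginyl protease legumain, rose by 0.62 ± 0.12 in M5 against control with the block (adjusted p = 0.0309), and the difference was 0.27 without it (adjusted p = 0.331).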

How the data were processed

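The authors deposited log2 signals of 22277 probe sets on 13 arrays, and RMA is the tool that the submitters' processing notes name. The sources used here do not give its version, settings or scan dates. The values were used as deposited. Of these, 62 are Affymetrix control probe sets and 19064 name 1 gene; 1043 name several genes and 2108 none, and these were left out. Each of 11963 genes was represented by its probe set with the highest mean; 30 of the 45 members have 1 probe set. Groups came from the sample titles. Differences were fitted with limma 3.58.1 in R 4.3.3 over all 13 arrays and all genes (lmFit, eBayes), with Benjamini-Hochberg adjustment at 0.05, without a block and with the control-probe clusters as a block. The code was tested on simulated data without clusters, for the mean of the lines against control and without a block. The block fit and the M5 comparisons were not tested in that way. Values on every array are given for members called in any comparison; members not called are given by ranges and counts, except the largest differences of a line and others chosen after their values were seen. The members and lists were chosen with earlier results of these data known. The alternatives were another normalization, filter, choice of probe set, block and set of arrays. Replicate numbers recur across groups, but of 23 same-numbered pairs 7 correlated above 0.1 (range -0.51 to 0.53). All 3 pairs of M4 and M5 did (0.20 to 0.46), so the replicate block is given beside M5 against M4, although M4 replicate 3 correlated more with M5 replicate 2 (0.46) than with M5 replicate 3 (0.20). The 2 kinds of control gave 0.53 from 2 pairs, which with 2 arrays each are 1 value. M1 and M4 had 2 of 3 pairs above 0.1 (-0.062 to 0.41). No same-numbered pair of any other 2 groups lay above 0.1. The smallest median difference between any 2 arrays was 0.0932, so no array was a copy of another. The number of arrays limits the precision. Nothing says that the replicates came from separate cultures beyond the label of biological replicate, so p-values measure the spread between these pools.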

Additional observations from a re-analysis of the deposited data

Results flagged for a closer look

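PLAU differed between M5 and each of the other lines: -1.09 on the log2 scale in M5 relative to M1 (limma adjusted p = 0.0425) and -1.06 relative to M4 (adjusted p = 0.0320), lower in 3 of 3 M5 arrays than in any array of either line. In the probe set used, no difference of PLAU from control passed in limma. It was -0.62 in M5 (adjusted p = 0.152), 0.46 in M1 and 0.43 in M4, and the arrays of M1 and M4 overlapped those of control. In M5 against control the second probe set passed at -1.29 (limma adjusted p = 0.00895) and the mean of all probe sets at -0.96 (0.0190). With the control-probe clusters as a block neither difference between lines passed in the probe set used, at -0.75 and -0.67 (limma adjusted p = 0.0971 and 0.152). The second probe set passed against M1 and against M4 with the block.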

How the results depend on the processing

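The counts of members called were 1 in M5 against control, M5 against M1 and M5 against M4. Each other count stands beside the share of all genes called in the same fit. The control-probe cluster block gave 0 in all 3 (1.98%, 1.61% and 1.85%), and so did the replicate block (0.886%, 0.811% and 1.45%) and only the arrays compared (0.242%, 0.0334% and 0.401%). M5 from replicate 1 alone, chosen after seeing the data, gave 0 in all 3 (0.318%, 0.284% and 0.702%). The spread in that fit comes from the other groups, so it says nothing on stability. Only controls without luciferase gave 0 in M5 against control (0.527%). The replicate block on the M4 and M5 arrays alone, also chosen after seeing the data, gave 0 against M4 (0.752%).

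In M5 against control, quantile normalization gave 3 (CTSB, MMP9 and SERPINE2, beside 2.6% of all genes). The trend and robust prior gave 3 (CTSC, SERPINE2 and TIMP1, beside 2.83%). Median centring gave 2 (MMP9 and SERPINE2, beside 2.47%) and the mean of all probe sets 2 (MMP9 and PLAU, beside 2.32%). Leaving out dim genes gave 2 of 22 (SERPINE2 and TIMP1, beside 4.91%). MMP9, with a mean signal of 5.38 against a median of 6.20 over all genes, was not among the 22. Against M1, median centring (1.2%), the mean of all probe sets (1.06%), the trend (1.4%) and dim genes left out (2.69%) gave 2 each, PLAU and SERPINE2. Against M4, the mean of all probe sets (1.82%), the trend (2.47%) and dim genes left out (4.5%) gave 2 each, CTSC and PLAU. Quantile normalization called 1 in each of these, SERPINE2 against M1 and CTSC against M4 in place of PLAU. In M4 against control, the arrays compared alone called 1, SERPINB5 (0.276%).

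MMP9 in M5 against control lost its call at 0.40 with the cluster block, 0.59 with the replicate block, 0.57 with the trend or only the arrays compared, 0.55 with only controls without luciferase, 0.59 with only those with it and 0.37 from M5 replicate 1 (adjusted p = 0.0501 to 0.460). PLAU against M1 lost it at -0.75 with the cluster block, -1.09 with the replicate block or only the arrays compared, -1.03 after quantile normalization and -1.10 from M5 replicate 1 (0.0609 to 0.224). Against M4 these were -0.67, -1.06, -0.97 and -1.06, and -1.06 with the replicate block on the M4 and M5 arrays alone (0.0554 to 0.196). The fit on only the arrays compared has fewer arrays; the cause of the other losses was not tested.

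Leaving out each of the 13 arrays in turn gave 0 to 11 members in M5 against control, 0 to 8 against M1, 0 to 10 against M4 and 0 to 2 for the mean of the lines. The highest counts came without M5 replicate 1, where the M5 arrays were those of cluster 4 alone. MMP9 ranged from 0.45 to 0.67, PLAU from -1.17 to -1.02 against M1 and from -1.31 to -0.82 against M4. MMP9 kept its call in 3 of the 13 fits, with a limma adjusted p of up to 0.191. PLAU kept its call in 7 of the 13 against M1 and in 9 against M4. Without M1 replicate 1, SERPINE2 was called in place of MMP9 in M5 against control and in place of PLAU against M1. M5 against control called none without any 1 of the control arrays, of the M4 arrays, or of M5 replicates 2 and 3, and 2 without M1 replicate 2. Against M1 none was called without M1 replicates 2 or 3, M4 replicate 3, or M5 replicates 2 or 3. Against M4 none was called without M4 replicates 2 or 3 or M5 replicates 2 or 3, and 2 without M4 replicate 1.

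Signs turned with the cluster block in M5 against control for ADAM10 (0.14), ADAM9 (0.25) and SERPINB5 (0.078), against M1 for ADAM10 (0.0070) and ADAM9 (0.15), and against M4 for ADAM9 (0.24). From M5 replicate 1 alone they turned for ADAM10 (0.086, 0.0055 and 0.029 against control, M1 and M4) and ADAM9 (0.29, 0.21 and 0.30). In another probe set, CTSB was 0.14 with luciferase. Of 1232 such recomputed values, 1219 kept their direction. In many of them the direction could not turn, so the count is no measure of stability. The trend and robust prior, leaving out dim genes and only the arrays compared leave the difference unchanged. So does leaving out an array of a group outside the comparison. Among the lines, M4 and M5 alone had all same-numbered pairs correlated above 0.1. For the other groups the replicate block is only this check.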
